A study of Mus musculus with 9 samples.

Results

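The 33 genes described here encode proteins of autophagy, mitophagy and the lysosome, and were taken by symbol from the 56791 genes of the count table in the gastrocnemius, a calf muscle, of female mice. All 33 were found and all 33 passed the filter on low counts, as did 17534 genes in all. RNA sequencing libraries came in 3 groups of 3. Aged GB mice received ginkgolide B, a terpene lactone of the ginkgo tree, at 12 mg per kg each day by gavage, aged vehicle mice received saline in the same way, and young vehicle mice also received saline, in each case for 2 months. Titles of vehicle libraries carry 23M (aged) or 3M (young), those of GB libraries carry neither, and the labels name neither strain nor genotype. Whether the 3 libraries of a group are separate animals is not stated, so a p-value here measures the spread between libraries, which may be technical.

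Autophagy encloses cytoplasm or organelles in a new membrane and delivers them to the lysosome for breakdown. Induction is started by the ULK kinase complex, a lipid kinase complex built on Pik3c3 and Becn1, the lipid scramblase Atg9a and the lipid-binding Wipi proteins. A conjugation machinery resembling that of ubiquitin then attaches LC3 and GABARAP proteins to the membrane, cargo receptors bind them, and lysosomal proteases digest the content. In skeletal muscle this pathway is active in fasting and denervation, and mitophagy is the branch that removes mitochondria.

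Total counts per library ranged over 39478427 to 44294097 (GB), 52068522 to 54095457 (aged vehicle) and 51543383 to 61680520 (young vehicle). The lowest count of any of the 33 genes in any library was 127, for Atg9a with GB. Summed over 8 muscle fibre markers, such as Acta1 and Ckm, the level was 129357 to 151017 CPM (counts relative to library size, scaled by TMM factors) with GB. It was 64584 to 66811 CPM in aged vehicle, against 78238 to 87087 CPM in young vehicle, and none of the 8 was at 0. At an adjusted p under 0.05 in edgeR's test, 5 of the 8 were higher and 2 lower with GB than in aged vehicle. The shares of all genes tested were 24.4% and 28.8%. Between aged and young vehicle 1 of the 8 was higher and 4 lower, beside 4.32% and 4.28% of all genes. The GB libraries stood apart as a group: 18678 to 19362 genes had a count there, whereas aged vehicle libraries had 22868 to 23045 such genes and young vehicle libraries 22616 to 24185. No batch is given by the labels, and a difference in preparation and the treatment cannot be told apart. These are levels in whole muscle, where fewer cells of a type and less RNA per cell cannot be told apart.

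With GB, 18 of the 33 genes differed from aged vehicle, 8 higher and 10 lower. The rises included Ctsd, Atg7, Map1lc3a, Tfeb and Gabarap, each 2.01-fold to 2.83-fold, and Atg9a showed the largest fall, to 4.51 ± 0.686 CPM with GB, against 86.8 ± 6.26 CPM in aged vehicle (SD, n = 3 each). By step, 0 of 9 induction genes rose and 5 fell, 4 of 12 conjugation genes rose and 3 fell, 2 of 5 cargo receptor and mitophagy genes rose and 0 fell, and 2 of 7 lysosome genes rose and 2 fell. The 18 genes were those with an adjusted p under 0.05 in edgeR's quasi-likelihood test. Of all genes tested 53.2% passed that threshold, 24.4% higher and 28.8% lower, so the share among the 33 was close to that among all genes. Their median on the log2 scale was -0.10, beside -0.05 over all genes tested. Scaling by library totals, which moved the median of all genes to -0.62, gave 5 higher and 26 lower. On that scale 2030 of all 17534 genes tested were higher and 8421 lower. Upper-quartile factors gave 11 higher and 9 lower, beside 4755 higher and 4545 lower of all genes.

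Between aged and young vehicle 5 of the 33 genes differed by the same test: Map1lc3a, Atg4a and Lamp2 were higher in aged vehicle, and Ulk2 and Bnip3 were lower. The sizes were small, from -0.34 to 0.44 on the log2 scale over all 33 genes. Of all genes tested 8.6% passed the threshold, 4.32% higher and 4.28% lower, and the median of the 33 genes was 0.10 on the log2 scale, beside 0 over all genes. Map1lc3a was called without each library in turn. The number called was 2 without young replicate 1 or young replicate 2, and 1 without young replicate 3 or aged vehicle replicate 1, 2 or 3. Upper-quartile factors gave 2 higher and 2 lower, beside 663 higher and 926 lower of all 17534 genes tested. Library totals gave 3 higher and 1 lower, beside 810 higher and 689 lower of all genes.

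**Figure D1:**
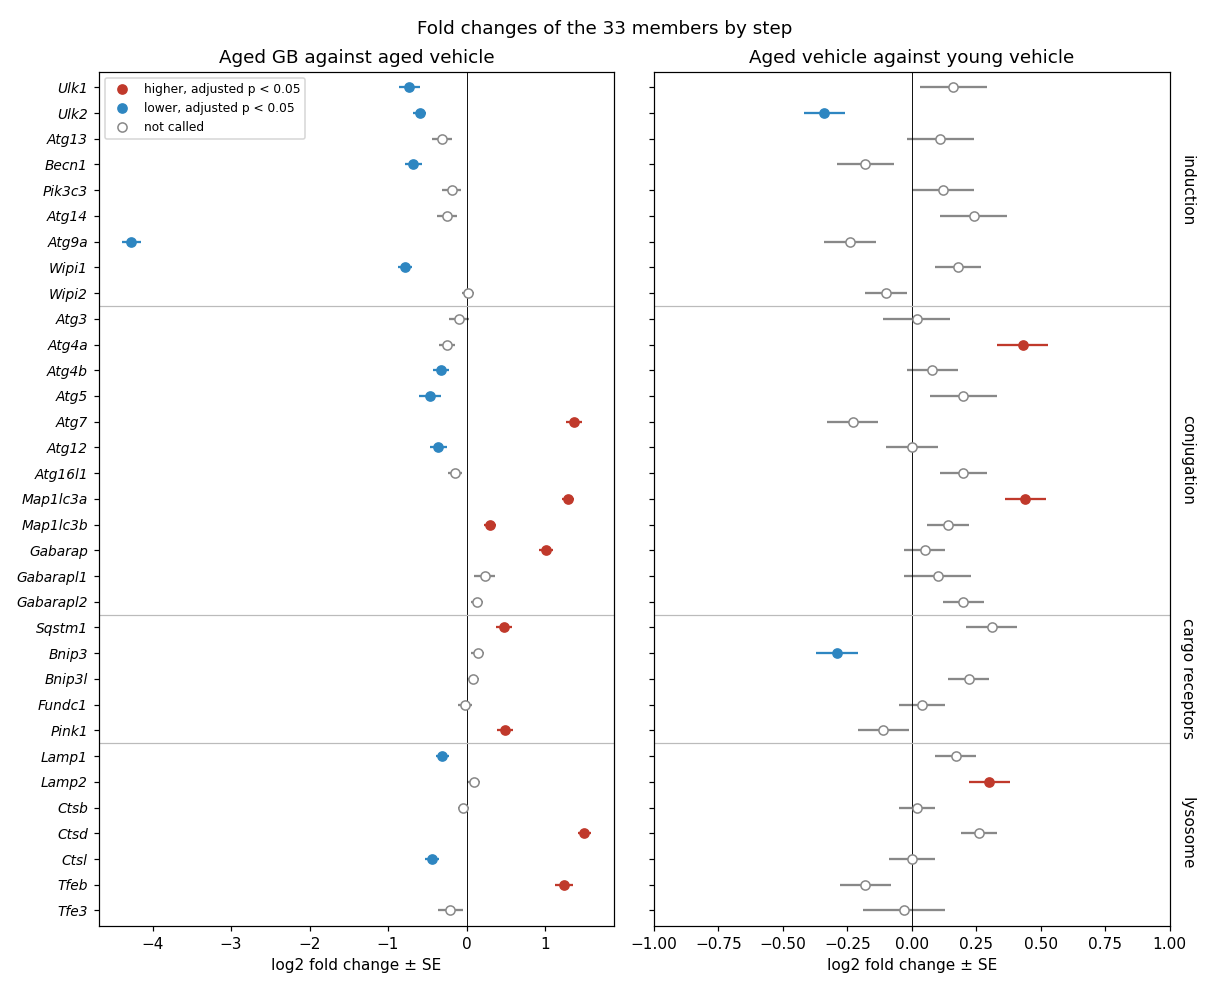
Log2 fold change with its standard error (SE) for each of the 33 genes, grouped by step, for aged GB against aged vehicle on the left and aged vehicle against young vehicle on the right. The horizontal scales differ: the left panel reaches -4.27 at Atg9a, and the right panel holds values between -0.34 and 0.44.

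Both contrasts use the same aged vehicle libraries, so their values for a gene are set side by side and not related to each other. Fold change with GB also followed gene length across all genes tested, by the length column of the table. The GB median lay at 0.88 on the log2 scale in the 1488 genes no longer than 1000 bases, 0.64 in the next 2382 genes up to 2000 bases, 0.19 for the 5225 genes up to 4000 bases, -0.23 for the 5833 genes up to 8000 bases, and -0.67 for the 2606 longer genes. Among the 33, these length classes held 0, 2, 12, 14 and 5 genes, and the medians of the 4 classes with genes were 1.15, 0.10, -0.34 and -0.15. After a length offset, which takes out the lowess trend with length in every library, 11 of the 33 were higher and 11 lower. With this offset 4023 of all 17534 genes tested were higher and 4176 lower. The offset ended 4 of the 18 calls: those of Atg4b, Atg12, Ctsl and Pink1. The part of length in the other differences was not tested.

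Induction genes were lower or not called with GB, and the largest difference was at Atg9a, which moves lipid between the leaflets of the growing membrane. Its level was 4.55, 3.81 and 5.18 CPM with GB, against 92.3, 88.2 and 80.0 CPM in aged vehicle and 99.0, 98.6 and 111 CPM in young vehicle. Each GB library lay far below every vehicle library, and the log2 fold change against aged vehicle was -4.27 (SE 0.12, edgeR adjusted p = 2.58e-10), that is 19.2-fold lower. The counts behind it were 143, 127 and 162 with GB, against 5247, 5584 and 4871 in aged vehicle. In the GENCODE M21 annotation Atg9a shares 1832 exon bases with Gm29253 on the same strand and 46 with Ankzf1 on the other. Gm29253 was at 0 in all 9 libraries, and Ankzf1 had counts of 199 to 317 (GB), 385 to 600 (aged vehicle) and 490 to 686 (young vehicle). The part of shared reads in the Atg9a difference was not tested.

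Ulk1 and Ulk2 encode related kinases that start the process. Ulk1 was at 76.6, 60.8 and 71.9 CPM with GB, against 142, 99.4 and 105 CPM in aged vehicle and 99.7, 107 and 103 CPM in young vehicle. The GB values lay below all others, and aged vehicle replicate 1 was the highest of the 9. Ulk1 fell by 0.73 on the log2 scale with GB (SE 0.13, edgeR adjusted p = 0.000471) and had 0.16 with age (SE 0.13, adjusted p = 0.518). Ulk2 was at 64.5, 74.6 and 70.4 CPM with GB, against 106, 107 and 105 CPM in aged vehicle and 132, 128 and 142 CPM in young vehicle. No library of any group overlapped another group: young vehicle was highest and GB lowest. Ulk2 fell by 0.60 with GB (SE 0.08, adjusted p = 4.13e-05) and by 0.34 with age (SE 0.08, adjusted p = 0.0211). The age call of Ulk2 was lost without young replicate 3 (adjusted p = 0.104) and without aged vehicle replicate 1, 2 or 3 (adjusted p = 0.056, 0.0733 and 0.0878).

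Becn1, which encodes the scaffold of the lipid kinase complex, was at 18.4, 18.5 and 20.9 CPM with GB, against 34.9, 28.5 and 29.4 CPM in aged vehicle and 37.2, 35.3 and 32.4 CPM in young vehicle. All GB libraries were below all vehicle libraries, while the aged and young vehicle libraries overlapped. Becn1 fell by 0.68 with GB (SE 0.11, edgeR adjusted p = 0.000205) and had -0.18 with age (adjusted p = 0.376). The annotation gives it 3104 exon bases in common with Cntd1 on the other strand, which had 0 counts in each GB library and counts of 8 to 13 (aged vehicle) and 4 to 14 (young vehicle). Wipi1, which binds the lipid that this kinase makes, was at 39.2, 37.7 and 33.9 CPM with GB, against 60.6, 61.7 and 69.3 CPM in aged vehicle and 55.0, 56.6 and 57.9 CPM in young vehicle. Again no GB library reached a vehicle library, and Wipi1 fell by 0.79 (SE 0.09, adjusted p = 1.01e-05), or by 1.36 with library totals. Its relative Wipi2 averaged 42.2 ± 0.326 CPM with GB, 41.6 ± 1.07 CPM in aged vehicle and 44.7 ± 1.49 CPM in young vehicle (SD, n = 3 each).

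The other 3 induction genes were not called in either contrast. Pik3c3, the catalytic subunit of the lipid kinase, had a log2 fold change of -0.19 with GB (SE 0.12, edgeR adjusted p = 0.204), and Atg14, the subunit that directs this kinase to autophagy, had -0.25 (SE 0.13, adjusted p = 0.144). Atg13, a partner of the ULK kinases, had -0.31 (SE 0.13, adjusted p = 0.0536). With library totals as the scale all 9 induction genes were called lower with GB, beside 8421 lower of all 17534 genes tested. With the length offset 5 were lower and 1, Wipi2, was higher at 0.66 (adjusted p = 2.77e-05). That offset called 4176 of all genes lower and 4023 higher. The length offset gave smaller falls for Ulk1 at -0.38, Ulk2 at -0.32 and Becn1 at -0.29, all still called, and library totals gave -1.28, -1.17 and -1.25 for them.

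**Figure D2:**
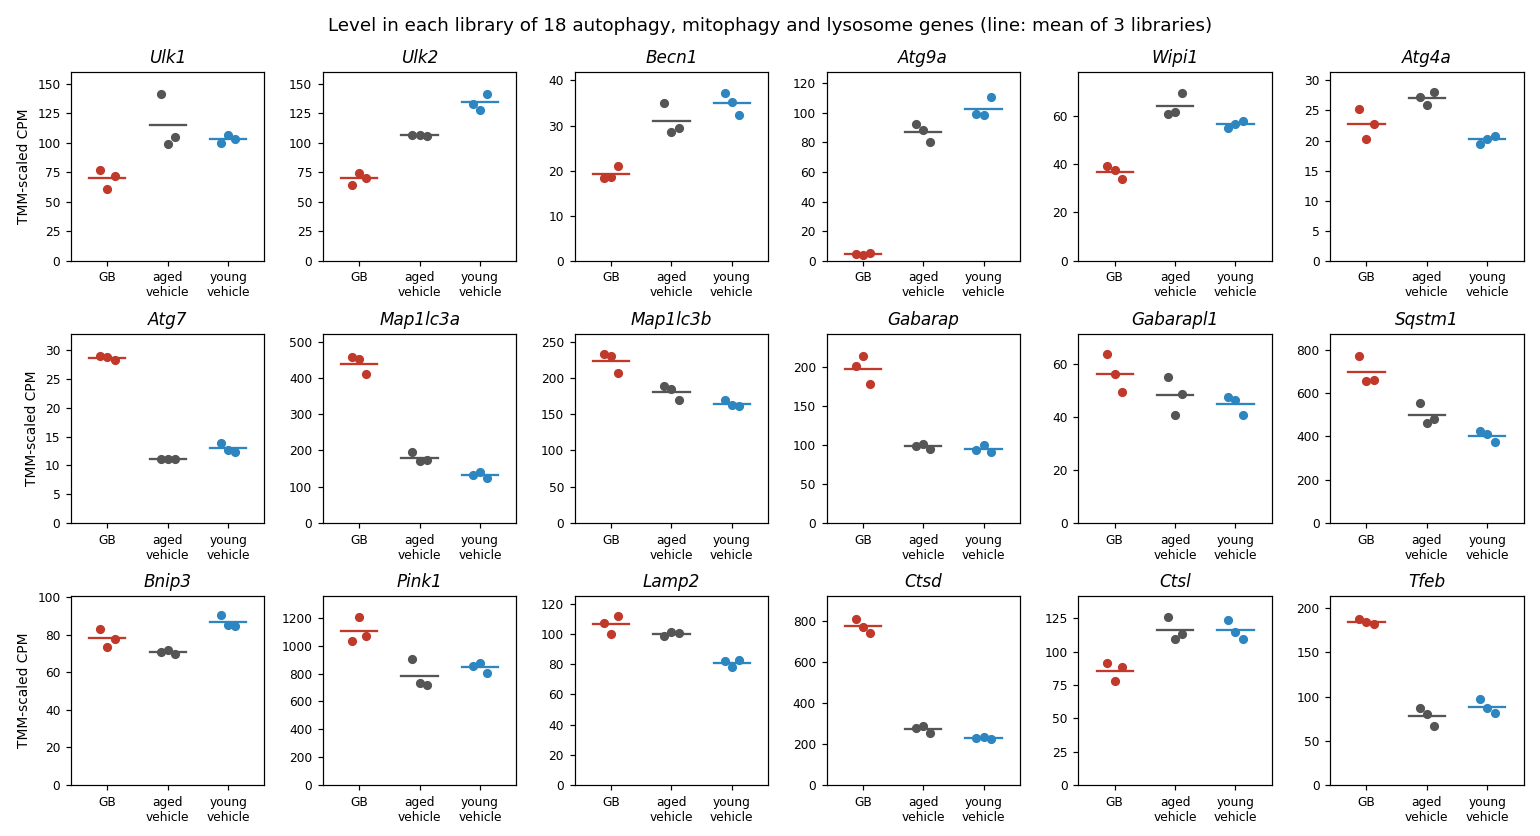
Level of 18 of the genes in each library, as CPM after TMM scaling, with a line at the mean of 3 libraries and every vertical axis starting at 0. Each panel runs from GB on the left through aged vehicle to young vehicle. GB libraries lie all above or all below every vehicle library except in the panels of Atg4a, Gabarapl1, Bnip3 and Lamp2.

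Conjugation genes moved in both directions with GB. Among the proteins that become attached to the membrane, Map1lc3a, Map1lc3b and Gabarap rose, and Gabarapl1 and Gabarapl2 were not called. Map1lc3a, an LC3 gene, was at 458, 452 and 410.2 CPM with GB, against 195, 170.4 and 175 CPM in aged vehicle and 132, 142 and 125 CPM in young vehicle. The groups were fully separate, with GB highest and young vehicle lowest. Map1lc3a rose by 1.29 on the log2 scale with GB (SE 0.08, edgeR adjusted p = 8.13e-08) and by 0.44 with age (SE 0.08, adjusted p = 0.00682). With the length offset the GB value was 0.53 (adjusted p = 0.000118), and with library totals it was 0.72. Its entry in the length column is short, at 1181 bases.

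Gabarap, the founding member of the other branch of this family, was at 202, 215 and 178 CPM with GB, against 98.6, 101 and 95.7 CPM in aged vehicle and 94.2, 101 and 91.5 CPM in young vehicle. Its 3 GB libraries lay above all vehicle libraries, and the vehicle groups overlapped. Gabarap rose by 1.01 with GB (SE 0.09, edgeR adjusted p = 7.72e-07), by 0.48 with the length offset and by 0.44 with library totals. Map1lc3b, whose product is the LC3 form most used as a marker of autophagosomes, was at 233, 230.3 and 206 CPM with GB, against 189, 185 and 169 CPM in aged vehicle and 169, 163 and 162 CPM in young vehicle. It rose by 0.30 with GB (SE 0.08, adjusted p = 0.00604), but with library totals the value was -0.26 (adjusted p = 0.0151), which lies above the median of all genes on that scale, -0.62. The annotation shows 58 of its exon bases in Zcchc14 on the other strand, which had 424 to 691 counts with GB and 2574 to 2739 in aged vehicle.

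Gabarapl1 was at 63.7, 56.3 and 49.3 CPM with GB, against 55.0, 40.7 and 48.8 CPM in aged vehicle and 47.7, 46.3 and 40.7 CPM in young vehicle. The groups overlapped, and its log2 fold change with GB was 0.23 (SE 0.13, edgeR adjusted p = 0.145). Gabarapl2 averaged 61.1 ± 2.02 CPM with GB, 55.7 ± 0.260 CPM in aged vehicle and 48.5 ± 2.58 CPM in young vehicle (SD, n = 3 each), and was called in neither contrast. The direction of this pair with GB turned with the scale: upper-quartile factors called Gabarapl1 and Gabarapl2 higher at 0.32 and 0.22, library totals called them lower at -0.33 and -0.43, and the length offset gave -0.25 (not called) and -0.24. Per kilobase of gene length, Map1lc3a had the highest level of the 5 in each group. It was at 372 ± 21.9 CPM per kilobase with GB, 152 ± 11.02 in aged vehicle and 113 ± 7.04 in young vehicle. Gabarap followed at 108 ± 10.01, 53.4 ± 1.52 and 51.8 ± 2.54 CPM per kilobase in the same order of groups. The other 3 lay between 20.9 and 29.7 CPM per kilobase in the group means. The ratio of Map1lc3a to Map1lc3b per kilobase spanned 12.5 to 12.7 (GB), 5.87 to 6.58 (aged vehicle) and 4.94 to 5.55 (young vehicle), so the groups did not overlap. By the length column these genes are 1181 and 7517 bases long. Without that division Map1lc3a and Map1lc3b averaged 440 and 223 CPM with GB. They averaged 180 and 181 CPM in aged vehicle and 133 and 164 CPM in young vehicle. With the length offset the rise with GB was smaller for Map1lc3a, at 0.53, than for Map1lc3b, at 0.74 (edgeR adjusted p = 1.38e-05). The part of length in the ratio was not tested.

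**Figure D3:**
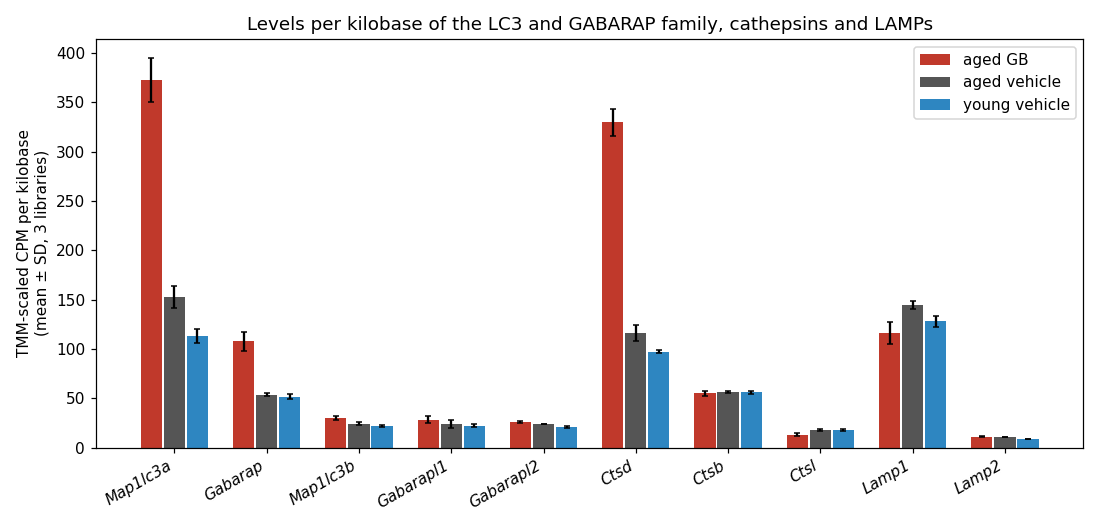
Mean level per kilobase of gene length with SD over 3 libraries, for 5 LC3 and GABARAP genes, 3 cathepsins and 2 LAMP genes, with aged GB, aged vehicle and young vehicle bars from left to right. Map1lc3a reached 372 with GB, against 152 in aged vehicle, and Ctsd reached 329 with GB, against 116 in aged vehicle.

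Among the other 7 conjugation genes, which encode enzymes and parts of the ligase, Atg7 rose with GB and Atg4b, Atg5 and Atg12 fell, by edgeR's test on the TMM scale. Atg7 encodes the activating enzyme at the head of both conjugation branches. It was at 28.9, 28.8 and 28.2 CPM with GB, against 11.2, 11.1 and 11.04 CPM in aged vehicle and 13.9, 12.7 and 12.3 CPM in young vehicle. Replicates differed little, and the GB libraries stood clear of the rest. Atg7 rose by 1.37 (SE 0.10, edgeR adjusted p = 2.45e-07), and by 1.76 with the length offset and 0.80 with library totals. It is 6968 bases long, in a length class whose median over all genes was -0.23.

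Atg5, which is joined to Atg12 to form the ligase for LC3, averaged 9.62 ± 1.14 CPM with GB, 13.3 ± 0.625 CPM in aged vehicle and 11.5 ± 1.08 CPM in young vehicle (SD, n = 3 each), and fell by 0.47 with GB (SE 0.14, edgeR adjusted p = 0.0114), or by 0.83 with the length offset. Library totals gave -1.03 for Atg5, -0.93 for Atg12 and -0.89 for Atg4b. Atg12 fell by 0.36 (SE 0.11, adjusted p = 0.0114), but its value was 0.08 with the length offset (adjusted p = 0.502). Atg4b, a protease that prepares LC3 and removes it again, fell by 0.33 (SE 0.10, adjusted p = 0.013), with 0.17 under the length offset (adjusted p = 0.193) and no call with upper-quartile factors (adjusted p = 0.0545). The related protease gene Atg4a was at 25.2, 20.3 and 22.8 CPM with GB, against 27.3, 26.0 and 28.1 CPM in aged vehicle and 19.5, 20.3 and 20.8 CPM in young vehicle. Every aged vehicle library was above every young vehicle library, and the GB libraries lay below aged vehicle and overlapped young vehicle. Atg4a rose by 0.43 with age (SE 0.10, adjusted p = 0.0242) and had -0.25 with GB (adjusted p = 0.0581), or -0.42 with the length offset (adjusted p = 0.00456). Its age call was lost without any of the 6 vehicle libraries, with adjusted p between 0.0554 and 0.105. Atg3, the enzyme that passes LC3 to lipid, and Atg16l1, which places the ligase on the membrane, had -0.10 (adjusted p = 0.548) and -0.15 (adjusted p = 0.171) with GB, but Atg16l1 had 0.43 with the length offset (adjusted p = 0.00171).

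Cargo receptor and mitophagy genes were higher or not called with GB on the TMM scale, with 2 of 5 called. But library totals called 0 higher and 3 lower, and the length offset 1 higher and 2 lower. Over all 17534 genes tested, library totals called 2030 higher and 8421 lower, and the length offset 4023 higher and 4176 lower. Sqstm1, whose product p62 links ubiquitin-marked cargo to LC3, was at 774, 657 and 662 CPM with GB, against 556, 461 and 479 CPM in aged vehicle and 423, 409 and 372 CPM in young vehicle. The groups were in the order GB, aged vehicle, young vehicle with no overlap. Sqstm1 rose by 0.48 with GB (SE 0.10, edgeR adjusted p = 0.000942), but the value was -0.08 with library totals (adjusted p = 0.524). With age it had 0.31 (SE 0.10, adjusted p = 0.0624), and the adjusted p ran from 0.0154 to 0.22 over the alternatives. Exons of Sqstm1 and of Mrnip on the other strand share 580 bases, and Mrnip had counts of 21 to 58 (GB), 37 to 64 (aged vehicle) and 57 to 79 (young vehicle).

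Pink1, a kinase that marks damaged mitochondria for removal, was at 1031, 1207 and 1068 CPM with GB, against 901, 735 and 715 CPM in aged vehicle and 855, 875 and 804 CPM in young vehicle. It had the highest level per kilobase of the 33 genes in each group, at 412 ± 34.6 CPM per kilobase with GB, 293 ± 38.2 in aged vehicle and 316 ± 13.7 in young vehicle. Pink1 rose by 0.49 with GB (SE 0.10, edgeR adjusted p = 0.000994), but the value was -0.07 with library totals (adjusted p = 0.475) and 0.23 with the length offset (adjusted p = 0.0857). Mitochondrially encoded genes took 24.3 to 26.1% of counts (GB), 13.9 to 15.3% (aged vehicle) and 8.6 to 10.2% (young vehicle), and their part in the Pink1 values was not tested.

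Bnip3, a mitophagy receptor of the outer mitochondrial membrane that hypoxia induces, was at 83.2, 73.3 and 77.4 CPM with GB, against 70.9, 71.6 and 69.5 CPM in aged vehicle and 90.3, 85.2 and 84.3 CPM in young vehicle. Aged vehicle was lowest with no overlap, and the GB libraries were all below the young vehicle libraries. Bnip3 fell by 0.29 with age (SE 0.08, edgeR adjusted p = 0.0364) and had 0.14 with GB (SE 0.08, adjusted p = 0.148), where library totals and the length offset called it lower at -0.42 and -0.25 and upper-quartile factors called it higher at 0.23. The age call was lost without any of the 6 vehicle libraries (adjusted p from 0.083 to 0.137), with library totals (0.0718), without a filter (0.0735) and with the length offset (0.061), among other settings. Its homologue Bnip3l averaged 80.4 ± 3.76 CPM with GB, 76.3 ± 3.94 CPM in aged vehicle and 65.5 ± 1.63 CPM in young vehicle, with 0.22 on the log2 scale with age (SE 0.08, adjusted p = 0.109). The ratio of Bnip3 to Bnip3l per kilobase spanned 1.54 to 1.85 (GB), 1.51 to 1.69 (aged vehicle) and 2.23 to 2.28 (young vehicle). By the length column they are 2265 and 3859 bases long, and the part of length in this ratio was not tested. Fundc1, another receptor of the outer mitochondrial membrane, averaged 24.8 ± 0.863, 25.2 ± 1.05 and 24.5 ± 1.37 CPM in the same order of groups.

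Lysosome genes moved in both directions with GB, with 2 of 7 higher and 2 lower on TMM factors. There were 2 higher and 5 lower on library totals, and 4 higher and 1 lower with the length offset. The counts over all genes under these settings are given above. Ctsd, an aspartic protease of the lysosome, was at 808, 772 and 743 CPM with GB, against 279, 289 and 252 CPM in aged vehicle and 228, 233 and 225 CPM in young vehicle. All GB libraries lay far above both vehicle groups, and all aged vehicle libraries above the young ones. Ctsd rose by 1.5 with GB (SE 0.08, edgeR adjusted p = 1.02e-08), the largest rise among the 33 genes on the TMM scale, and by 1.14 with the length offset, where Atg7 and Tfeb rose more, and 0.94 with library totals. With age its log2 fold change was 0.26 (SE 0.07, adjusted p = 0.0523, and 0.0198 to 0.193 over the alternatives). The annotation places 808 of its exon bases also in Gm49369 on the same strand, which was at 0 in all 9 libraries.

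The other cathepsin genes were lower or not called with GB on the TMM scale. Ctsl, a cysteine protease, was at 91.3, 77.9 and 88.3 CPM with GB, against 126, 109 and 113 CPM in aged vehicle and 124, 115 and 109 CPM in young vehicle. The GB libraries were below all vehicle libraries, and Ctsl fell by 0.44 (SE 0.09, edgeR adjusted p = 0.00146), but had -0.10 with the length offset (adjusted p = 0.442). Ctsb, a related cysteine protease, averaged 333 ± 13.9 CPM with GB, 342 ± 7.59 CPM in aged vehicle and 338 ± 9.89 CPM in young vehicle (SD, n = 3 each), with log2 fold changes of -0.04 with GB (SE 0.07) and 0.02 with age (SE 0.07), but 0.26 with GB under the length offset (adjusted p = 0.00973). Per kilobase, Ctsd was 5.76 to 6.19 times Ctsb with GB, 1.94 to 2.16 times in aged vehicle and 1.72 to 1.78 times in young vehicle. Ctsd is 2351 and Ctsb 6051 bases long by the length column. In CPM without this division Ctsd averaged 774 with GB, above Ctsb. It averaged 273 in aged vehicle and 229 in young vehicle, below Ctsb in both. The part of length in this ratio was not tested.

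Lamp1 and Lamp2 encode the main glycoproteins of the lysosomal membrane, and a form of Lamp2 serves as a receptor in chaperone-mediated autophagy. Lamp1 was at 277, 330.4 and 325 CPM with GB, against 398, 382 and 378 CPM in aged vehicle and 329, 358 and 339 CPM in young vehicle. It fell by 0.31 with GB (SE 0.08, edgeR adjusted p = 0.00647), or by 0.57 with the length offset and 0.88 with library totals. Lamp2 was at 108, 99.6 and 112 CPM with GB, against 98.3, 101 and 101 CPM in aged vehicle and 82.2, 78.2 and 83.0 CPM in young vehicle. Both groups of aged mice lay above young vehicle and overlapped each other. Lamp2 rose by 0.30 with age (SE 0.08, adjusted p = 0.0274) and had 0.09 with GB (adjusted p = 0.342), but 0.67 with GB under the length offset (adjusted p = 1.5e-05) and -0.48 with library totals (adjusted p = 0.000339). The age call was lost without any of the 6 vehicle libraries (adjusted p from 0.0506 to 0.12) and with upper-quartile factors (0.0566).

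Tfeb and Tfe3 encode related transcription factors that switch on lysosome and autophagy genes. Tfeb was at 188, 185 and 182 CPM with GB, against 87.5, 80.7 and 66.7 CPM in aged vehicle and 97.8, 86.8 and 82.0 CPM in young vehicle. The GB libraries were clear of the vehicle libraries, which overlapped each other. Tfeb rose by 1.24 with GB (SE 0.11, edgeR adjusted p = 7.95e-07), by 1.5 with the length offset and by 0.68 with library totals. Tfe3 averaged 11.5 ± 2.64 CPM with GB, 13.4 ± 0.452 CPM in aged vehicle and 13.6 ± 1.22 CPM in young vehicle, with -0.21 with GB (SE 0.16, adjusted p = 0.297).

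Macrophages are rich in lysosomes, so their markers are given beside these genes. The summed level of 12 macrophage markers was 193 to 210.0 CPM with GB, 226 to 258 CPM in aged vehicle and 202 to 236 CPM in young vehicle, with none at 0 in any group. With GB 1 of the 12 rose and 5 fell, beside 24.4% higher and 28.8% lower of all genes tested. With age 1 rose and 0 fell, beside 4.32% higher and 4.28% lower of all genes. Endothelial markers, 8 in all, summed to 302 to 366 CPM with GB, 599 to 635 CPM in aged vehicle and 404 to 419 CPM in young vehicle. Fibroblast markers summed to 498 to 608, 714 to 917 and 794 to 1523 CPM in the same order, adipocyte markers to 78.2 to 145, 28.4 to 41.0 and 52.5 to 91.7 CPM, and red cell markers to 644 to 755, 1113 to 2056 and 230.0 to 494 CPM. The satellite cell markers lay between 7.74 and 17.9 CPM in all. The part of these cell types in the values of the 33 genes was not tested.

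TFEB and TFE3 bind the E-box letters CACGTG, and these letters with GT before and AC after them form the CLEAR element of lysosome genes. Promoter windows of 250 bases before and 50 bases after the start were matched for 26 of the 33 genes in RefSeq (GRCm38.p6), in 30 windows. CACGTG, which reads the same on both strands, was present in windows of 8 genes: Atg3, Atg5, Atg7, Atg14, Bnip3, Ctsd, Ctsl and Lamp1. It is held by 7.15% of the 32851 RefSeq windows of that length. An exact match to the CLEAR letters, which include CACGTG, was in 0 of the 30 windows and in 0.326% of all. Partial matches to those letters were not counted in these values. The shorter letters TCACGTG, on either strand, were in 5 of the 30 windows and in 3.77% of all. A match describes the letters of the window and shows no binding. Of these 8 genes, Ctsd and Atg7 rose with GB, Lamp1, Ctsl and Atg5 fell, and Atg3, Atg14 and Bnip3 were not called.

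The windows of 4 of them are shown because they span the different responses: Ctsd and Atg7 rose with GB, Lamp1 fell and had the most copies, and Bnip3 fell with age by edgeR's test on all 9 libraries. CACGTG is in capitals and the rest in lower case, 5′ to 3′ on the strand of the gene. The windows are chr7:142387778-142388077 on the minus strand for Ctsd, chr6:114670846-114671145 on the plus strand for Atg7, chr8:13158911-13159210 on the plus strand for Lamp1 and chr7:138909457-138909756 on the minus strand for Bnip3.
Ctsd: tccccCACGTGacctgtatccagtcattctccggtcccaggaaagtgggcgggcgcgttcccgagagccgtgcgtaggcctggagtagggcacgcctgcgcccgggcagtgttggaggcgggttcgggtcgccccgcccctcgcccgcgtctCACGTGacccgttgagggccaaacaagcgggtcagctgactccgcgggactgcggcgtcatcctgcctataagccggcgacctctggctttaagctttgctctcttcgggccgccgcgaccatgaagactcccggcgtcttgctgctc
Atg7: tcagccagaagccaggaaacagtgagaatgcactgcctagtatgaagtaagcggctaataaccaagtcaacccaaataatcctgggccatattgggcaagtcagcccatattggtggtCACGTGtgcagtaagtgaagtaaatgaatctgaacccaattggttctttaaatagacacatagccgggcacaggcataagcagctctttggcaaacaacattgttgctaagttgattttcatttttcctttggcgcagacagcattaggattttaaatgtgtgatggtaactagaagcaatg
Lamp1: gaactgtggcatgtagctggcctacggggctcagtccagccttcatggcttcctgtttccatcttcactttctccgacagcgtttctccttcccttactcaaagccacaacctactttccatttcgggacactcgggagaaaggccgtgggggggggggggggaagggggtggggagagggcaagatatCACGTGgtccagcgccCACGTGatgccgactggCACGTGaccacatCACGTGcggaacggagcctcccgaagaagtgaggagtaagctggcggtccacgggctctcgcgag
Bnip3: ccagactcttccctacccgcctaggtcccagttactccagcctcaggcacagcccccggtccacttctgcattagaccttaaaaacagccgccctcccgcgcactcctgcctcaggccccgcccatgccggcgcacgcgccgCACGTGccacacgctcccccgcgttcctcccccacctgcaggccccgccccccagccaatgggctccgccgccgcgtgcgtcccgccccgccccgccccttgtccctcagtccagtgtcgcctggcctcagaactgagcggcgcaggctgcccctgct
The Ctsd window holds 2 copies, which begin 245 and 98 bases before the start. Lamp1 holds 4 copies within 61 bases of its start, at 61, 45, 28 and 15 bases before it. Atg7 and Bnip3 hold 1 copy each, at 132 and 108 bases before the start. The starts are those of RefSeq, and whether each is the main start of its gene was not tested.

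Of 78 further genes of the pathway, 77 were in the table and were tested. With GB 23 rose and 27 fell by edgeR's test, where 24.4% of all genes tested were higher and 28.8% lower. The median log2 fold change was -0.16, beside -0.05 over all genes. Library totals gave 12 higher and 52 lower, beside 2030 higher and 8421 lower of all 17534 genes tested. The length offset gave 28 higher and 19 lower, beside 4023 higher and 4176 lower of all genes. The proton pump of the lysosome had 9 of 15 listed genes higher and 2 lower, beside the same 24.4% and 28.8% of all genes. For these 15, library totals gave 5 higher and 6 lower, and the length offset 10 higher and 2 lower. The counts over all genes in those settings are the ones just given. The rises among all 77 genes were largest at Atp6v1g1, Atp6v1f, Vamp8 and Atp6v0b. Atp6v1g1, a stalk subunit of the pump, was at 552 ± 32.2 CPM with GB, against 146 ± 5.71 CPM in aged vehicle (SD, n = 3 each), and rose by 1.92 on the log2 scale (SE 0.08, adjusted p = 1.66e-09). Atp6v1f, of the same catalytic sector, rose by 1.61 (SE 0.09), and Atp6v0b, of the membrane sector, by 1.46 (SE 0.09). Vamp8, a membrane fusion protein of autophagosome and lysosome, rose by 1.56 (SE 0.13). The length offset gave smaller rises of 1.16 for Atp6v1g1 and 0.82 for Atp6v1f, and library totals gave 1.04 for Atp6v1f, 0.90 for Atp6v0b and 0.99 for Vamp8, all still called.

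Large falls with GB among these 77 genes included those of Atg2b, Epg5 and Bcl2l13. Atg2b, a lipid transfer protein, fell by 1.61 on the log2 scale (SE 0.15, edgeR adjusted p = 1.59e-06), and Epg5, a tether of autophagosomes to lysosomes, fell by 1.56 (SE 0.13, adjusted p = 8.18e-07). Bcl2l13, a mitophagy receptor, was at 37.1 ± 3.34 CPM with GB, against 92.2 ± 3.64 CPM in aged vehicle (SD, n = 3 each). The length offset gave smaller falls, of -0.86 for Atg2b, -0.95 for Epg5 and -0.76 for Bcl2l13, all still called. Of the 13 genes of membrane fusion and tethering 2 rose and 6 fell, beside 24.4% higher and 28.8% lower of all genes. With the length offset 4 rose and 5 fell, beside 4023 higher and 4176 lower of all 17534 genes tested.

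With age 6 of the 77 further genes rose and 2 fell, beside 4.32% higher and 4.28% lower of all genes. The median log2 fold change of the 77 was 0.06. Foxo1 and Foxo3, transcription factors that induce autophagy and atrophy genes in muscle, rose by 1.87 (SE 0.26, edgeR adjusted p = 0.00268) and 0.77 (SE 0.11, adjusted p = 0.00141). Foxo1 was at 65.0 ± 25.7 CPM in aged vehicle, against 17.8 ± 1.81 CPM in young vehicle (SD, n = 3 each), so its aged libraries were widely spread. Optn, a cargo receptor for ubiquitin-marked mitochondria, rose by 0.66 (SE 0.10, adjusted p = 0.00196). Rb1cc1, the scaffold of the ULK complex, rose by 0.45 (SE 0.12, adjusted p = 0.0327), a call lost, among other settings, without young replicate 2 or 3, aged vehicle replicate 1, 2 or 3 or GB replicate 2 (adjusted p from 0.0532 to 0.143). Rubcn, an inhibitor of the lipid kinase complex, fell by 0.46 (SE 0.10, adjusted p = 0.0164), a call lost without young replicate 3 or aged vehicle replicate 1 or 3 (adjusted p = 0.0901, 0.0611 and 0.076). Atg4d, a protease of the Atg4 family, fell by 0.30 (SE 0.08, adjusted p = 0.0451), a call lost, among other settings, without any of the 6 vehicle libraries or GB replicate 2, and with DESeq2 size factors, library totals or no filter (adjusted p from 0.0517 to 0.181).

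**Figure D4:**
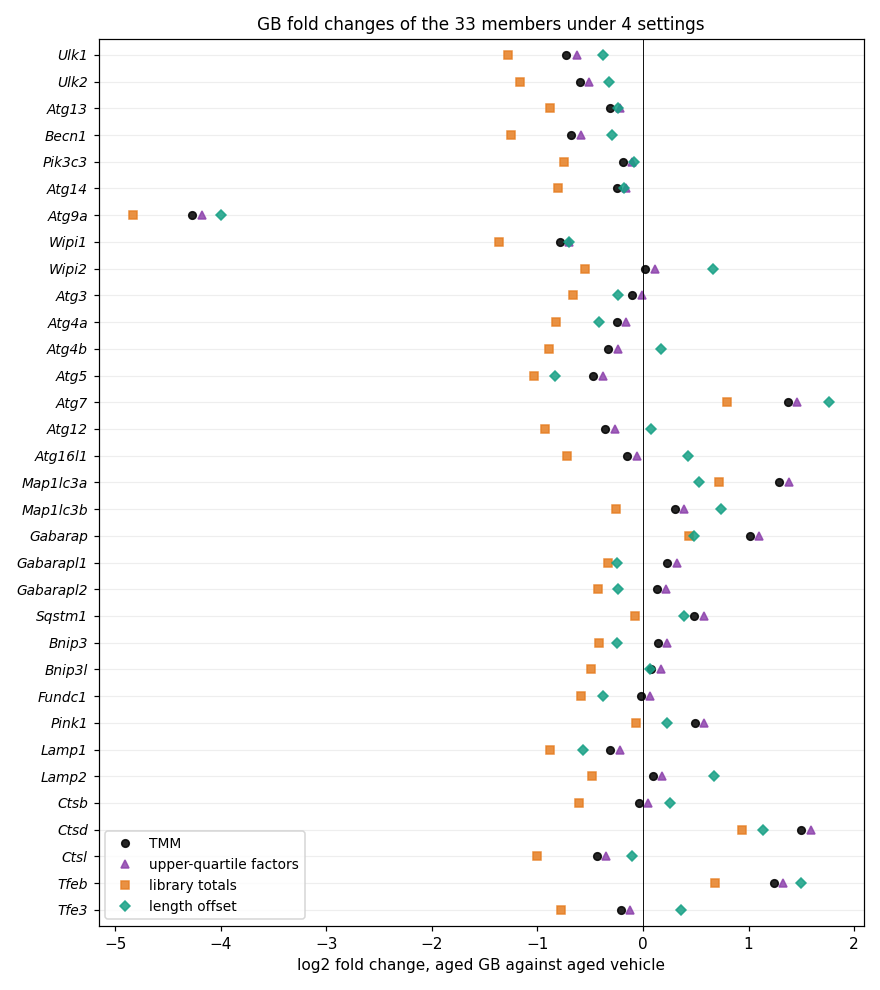
Log2 fold change of each of the 33 genes for aged GB against aged vehicle under TMM factors, upper-quartile factors, library totals and the length offset. Library totals shift all genes to lower values, and Atg9a, Ctsd, Atg7, Tfeb, Map1lc3a and Gabarap keep their sign under all 4 settings.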

How the data were processed

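The values deposited by the authors are raw counts, whole numbers for each of 56791 genes and 9 libraries, beside a gene length column. Per the labels' protocols, TRIzol RNA was made into libraries with a KAPA mRNA kit. FastQC, HISAT2, SAMtools and DESeq2, and the builds GRCm39 and mm10, are named per the submitters' processing notes, with no versions. For the read counter, its annotation and strandedness, the entry is not given in the sources used here, so overlapping genes and near-identical copies are uncertain. Exon overlaps, found for 12 of the 33 genes, come from GENCODE M21 (GRCm38), which may not be the annotation counted.

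Groups and replicate numbers came from the sample titles. The counts were modelled using edgeR 4.0.16 (R 4.3.3): filterByExpr (minimum count 10, minimum total 15), TMM factors, and 1 quasi-likelihood model (robust=TRUE) on all 9 libraries, two-sided, with Benjamini-Hochberg adjustment over the 17534 genes tested and a threshold of 0.05. SE is the size of the log2 fold change divided by the square root of F. Replicates of a group differed by more than sampling noise (chi-square per degree of freedom 16.1 to 58.4). Members and lists were chosen with earlier results of these data known. Values of every library are given for genes called with age, the 12 largest changes with GB and 10 set genes. Of the further pathway genes, up to 4 rises and 4 falls per contrast with at least 2 CPM are named, and 1 gene that this rule took is not reported here. A trial run on simulated data was also made. Its outcome is not reported here, and no call with GB or with age rests on that trial. Alternatives were other scalings and filters, DESeq2 1.42.0, a replicate block, fits of just the groups compared, a length offset (lowess, span 0.3) and leaving out each library. The E-box and CLEAR letters were searched after the values were known.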

Additional observations from a re-analysis of the deposited data

How the results depend on the processing

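With GB, 12 of the 18 called genes kept direction and call under all 18 alternatives, and all 18 did when each of the 9 libraries was left out in turn. With age 1 of 5, Map1lc3a, did so. The number of the 33 called with age was 1 to 7 over the fits that left out a library. Called further pathway genes with age numbered 13 with DESeq2, 13 with only the groups compared, 5 with the replicate block and 3 to 12 without a library, against 8. All genes called with age numbered 2410 with DESeq2 and 749 to 2010 without a library, against 1508. With GB, library totals called 31 of the 33, against 18, and 10451 of all genes, against 9326.

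Directions turned for these log2 fold changes with GB. The length offset gave 0.17 for Atg4b, 0.08 for Atg12, 0.43 for Atg16l1, -0.25 for Gabarapl1, -0.24 for Gabarapl2, -0.25 for Bnip3, 0.26 for Ctsb and 0.36 for Tfe3. Library totals gave -0.55 for Wipi2, -0.26 for Map1lc3b, -0.33 for Gabarapl1, -0.43 for Gabarapl2, -0.08 for Sqstm1, -0.42 for Bnip3, -0.49 for Bnip3l, -0.07 for Pink1 and -0.48 for Lamp2. Upper-quartile factors gave 0.07 for Fundc1 and 0.05 for Ctsb, a minimum count of 30 gave 0.01 for Fundc1, no filter gave -0.05 for Wipi2, and the fit without aged vehicle replicate 1 gave -0.01 for Wipi2. With age, upper-quartile factors gave -0.03 for Atg3 and -0.03 for Ctsb. The fit without aged vehicle replicate 1 gave -0.01 for Ulk1 and -0.04 for Atg3, and that without young replicate 3 gave -0.10 for Atg3 and 0.02 for Tfe3, within ranges of -0.10 to 0.14 for Atg3 and -0.11 to 0.02 for Tfe3 over the fits that left out a library. Library totals set aside the TMM factors, which were 0.752 to 0.797 with GB and 1.09 to 1.17 in aged vehicle. With GB this scale moved the median of all genes from -0.05 to -0.62. The cause of the turns under the other settings was not tested.

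Deviations of libraries with the same replicate number were not correlated across genes. Pearson's r was 0 to 0.03 between aged and young vehicle and -0.03 to 0 between GB and aged vehicle. These correlations, which weigh all genes tested alike, showed no pairing. But in each group replicates 2 and 3 differed least, with chi-square per degree of freedom of 16.5 (GB), 16.1 (aged vehicle) and 18.2 (young vehicle). Pairs with replicate 1 had 30.7 to 58.4. What sets replicate 1 apart was not tested. With the replicate number as a block 5 and 18 of the 33 genes were called with age and with GB. With age the block ended the calls of Bnip3 (edgeR adjusted p = 0.0514), Rb1cc1 (0.0596) and Atg4d (0.0746), and Sqstm1 was called (0.0323). With 3 libraries a group, differences with age near 0.3 on the log2 scale lay at the limit of what was called.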
